A study of Mus musculus with 6 samples.

Results

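The 8 genes described here are the IL-4 receptor chains Il4ra and Il13ra1, the transcription factor Stat6, and 5 genes that interleukin 4 (IL-4) is known to induce in lymphocytes: Fcer2a, Il4i1, Zbtb32, Nfil3 and Gfi1. They were taken by gene symbol from the table of gene counts, which held 1 row for each of them among 37620 genes. All 8 passed the filter on low counts, as did 12898 genes in all without Sox2. The series compared 3 libraries of mouse splenic B cells carrying the retroviral vector pMIR with 3 carrying pMIR-Sox2, the same vector with the transcription factor Sox2. Every library came from C57Bl/6 mice aged 4 months, and all cultures held IL-4 at 12.5 µg/ml beside anti-CD40 at 1 µg/ml, so the control cells too were under IL-4. Cells were infected at 24 and 48 h and sorted at 96 h for mCherry, the reporter of infection. The added Sox2 came from a retrovirus, and counts per gene do not separate it from Sox2 of its own locus. Groups and replicate numbers came from the sample titles. Whether a replicate was an animal of its own is not in the labels, so a p-value here speaks only of how these 6 libraries vary, which may be technical.

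IL-4 is the cytokine that turns B cells towards IgG1 and IgE. It binds IL4Rα (Il4ra), which pairs either with the common gamma chain (Il2rg) or with IL13Rα1 (Il13ra1). Janus kinases on the receptor tails then phosphorylate STAT6, which enters the nucleus and binds genes such as Fcer2a.

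The depth was 21421769 to 27692437 gene counts for the pMIR libraries and 17153805 to 20770447 for the pMIR-Sox2 libraries. Sox2, the introduced gene, had at most 37 counts in any pMIR library and at least 10763 in any pMIR-Sox2 library. Levels are given as CPM, in which each library's gene counts are scaled to its effective size, and they are relative measures: fewer cells of a type and less RNA per cell cannot be told apart. The B cell label was checked with 5 markers, whose summed level was 2482 to 3493 CPM in pMIR and 1610 to 2096 CPM in pMIR-Sox2. Cd79b, Cd22 and Ms4a1 fell, Pax5 rose and Cd79a did not pass. The 6 T cell markers summed to 1.15 to 1.67 CPM and 1.28 to 2.80 CPM, and no library had more than 5 counts of Cd3d, Cd3e, Cd3g, Cd4 or Cd8a. The 6 macrophage and monocyte markers summed to 18.4 to 21.8 CPM in pMIR and 29.8 to 36.5 CPM in pMIR-Sox2, most of it from Emr1. Of these, Emr1 (18.6 ± 1.80 to 27.4 ± 2.61 CPM), Itgam (0.558 ± 0.0718 to 3.79 ± 1.02 CPM) and Lyz2 (at most 1 count in a pMIR library and 10 to 17 in a pMIR-Sox2 library) rose, Csf1r did not pass, and Cd14 and Fcgr1 were below the filter, Cd14 with 1 count over all libraries. The 4 dendritic cell markers summed to 10.9 to 18.0 CPM in pMIR and 6.98 to 7.90 CPM in pMIR-Sox2, most of it from Flt3, which fell. Of the 4 mast cell and basophil markers, Mcpt8, Cpa3 and Fcer1a were at 0 in every library. The other, Kit, was at 1.67 ± 1.17 CPM in pMIR and 1.81 ± 1.08 CPM in pMIR-Sox2 and did not pass. The part of these markers in the results below was not tested.

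Of the 8 genes, 5 fell with Sox2 (Zbtb32, Il4i1, Nfil3, Fcer2a and Stat6), 1 rose (Gfi1) and 2, both receptor chains, did not pass the test. Genes were tested with edgeR's quasi-likelihood test, with p-values adjusted by the Benjamini-Hochberg method over all genes and a threshold of 0.05. Over all 12898 genes tested, 43.2% were called, 23.2% as higher and 20.0% as lower. The median log2 fold change of the 8 genes was −0.74, beside −0.02 over all genes tested. The 8 genes were chosen with earlier results of these data known, so values set beside all genes are a description and not a test. The groups did not overlap in 7 of the 8 genes, beside 56.5% of all genes. The 3 pMIR-Sox2 libraries lay below the 3 pMIR libraries for 5 of the 8 genes, beside 27.6% of all genes, and above them for 2, beside 28.9% of all genes.

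**Figure D1:**
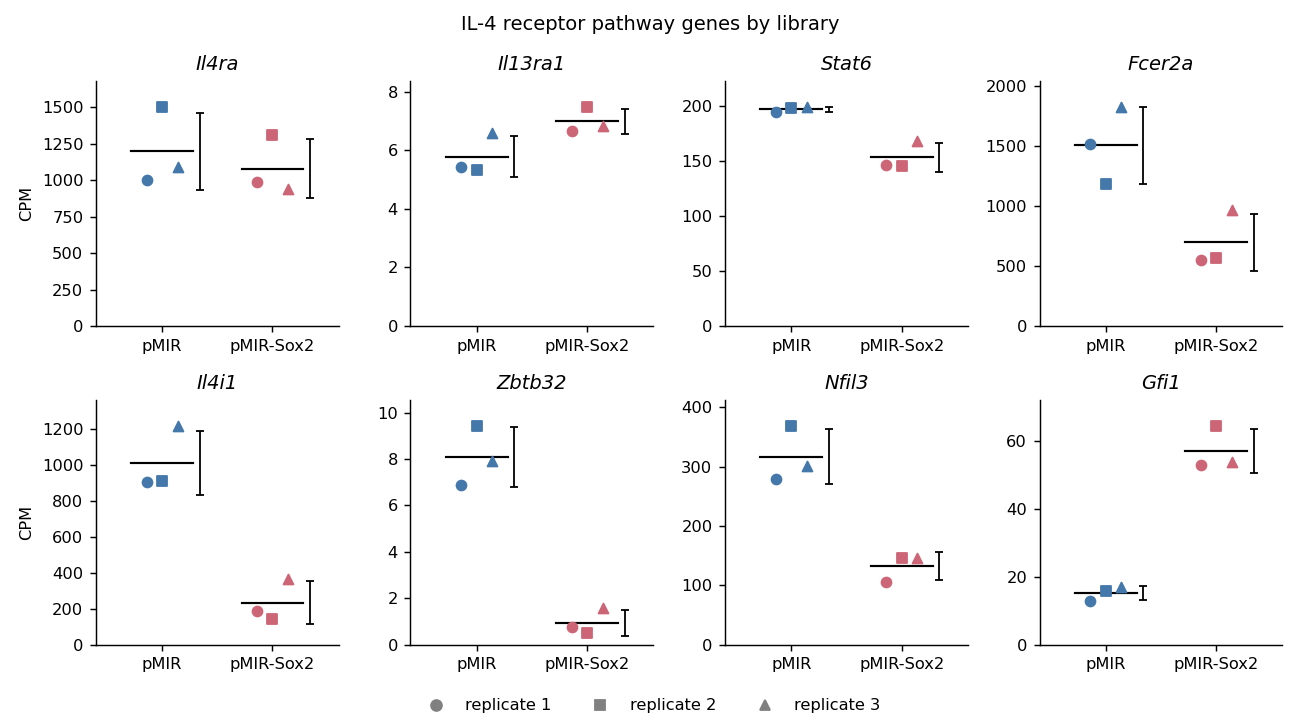
CPM of the 8 genes in each library, 1 panel per gene, with pMIR in blue and pMIR-Sox2 in red; each symbol is 1 replicate, the horizontal bar is the mean and the error bar the SD of 3 libraries. The groups overlap for Il4ra alone among the 8 genes, and Gfi1 and Il13ra1 are higher in every pMIR-Sox2 library.

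Il4ra encodes the chain that binds IL-4 in both forms of the receptor. It was read at 1004, 1500 and 1093 CPM in pMIR replicates 1 to 3 and at 987, 1313 and 938 CPM in pMIR-Sox2. Replicate 2 was the highest library of each group, and the groups overlapped. The mean was 1199 ± 265 CPM (SD, n = 3) in pMIR and 1079 ± 204 CPM (n = 3) in pMIR-Sox2, with a log2 fold change of −0.15 ± 0.18 (SE, edgeR adjusted p = 0.530). The 95% interval of the fold ran from 0.676 to 1.199, a range that includes both a fall and a rise. Without pMIR replicate 2 the log2 fold change was 0.04, with adjusted p = 0.883 in edgeR.

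Il13ra1 encodes the second chain of the receptor form that also answers IL-13. Its counts were low, 112 to 147 per library in pMIR and 118 to 145 in pMIR-Sox2. It was read at 5.42, 5.34 and 6.58 CPM in pMIR and at 6.66, 7.46 and 6.84 CPM in pMIR-Sox2. Every pMIR-Sox2 library was above every pMIR library, but the gap between the nearest libraries was small and the test did not pass (log2 fold change 0.27 ± 0.17, edgeR adjusted p = 0.216). The 95% interval of the fold was 0.930 to 1.57.

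The common gamma chain Il2rg, which completes the other form of the receptor, fell from 183 ± 13.1 to 145 ± 3.67 CPM (n = 3 each; log2 fold change −0.34 ± 0.10, edgeR adjusted p = 0.0187). Il2rg did not pass when pMIR replicate 3 was left out (edgeR adjusted p = 0.0939), when pMIR-Sox2 replicate 1 was left out (0.0601) or when libraries were scaled by their totals alone (0.0517). With the replicate number as a block, Il2rg passed (edgeR adjusted p = 0.00697). Per exon length, as CPM per kilobase of exon (RPKM), the pMIR means were 200 for Il4ra, 76.6 for Il2rg and 1.56 for Il13ra1. In pMIR-Sox2 they were 180, 60.6 and 1.88 RPKM. The chains kept this order in both groups, with Il13ra1 by far the lowest. The decoy chain Il13ra2 had no count in any library, nor had the ligand Il13, and Il4 itself had 2 counts in pMIR-Sox2 replicate 2 and none elsewhere.

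Stat6, the transcription factor that carries the IL-4 signal to DNA, was read at 194, 198 and 199 CPM in pMIR and at 146, 145 and 168 CPM in pMIR-Sox2. The pMIR libraries were close to each other and above all pMIR-Sox2 libraries. The mean fell from 197 ± 2.23 to 153 ± 13.0 CPM (n = 3 each), a log2 fold change of −0.36 ± 0.10 (edgeR adjusted p = 0.0154). In percent, it fell by 22.2%. Stat6 also passed with the replicate number as a block (edgeR adjusted p = 0.00429). Stat6 did not pass when pMIR replicate 3 (edgeR adjusted p = 0.0588) or pMIR-Sox2 replicate 1 (0.0514) was left out, with log2 fold changes of −0.36 and −0.32.

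Fcer2a encodes CD23, the low-affinity IgE receptor of B cells and a standard surface readout of IL-4. It was read at 1515, 1181 and 1825 CPM in pMIR and at 553, 568 and 969 CPM in pMIR-Sox2. pMIR-Sox2 replicate 3 was the highest of its group, and pMIR replicate 2 the lowest of the other, yet the groups did not overlap. The mean fell from 1507 ± 322 to 697 ± 236 CPM (n = 3 each), with a log2 fold change of −1.11 ± 0.24 (edgeR adjusted p = 0.00583), or 2.16-fold. Adam10, the protease that sheds CD23 from the cell surface, rose from 130 ± 11.3 to 192 ± 26.9 CPM (log2 fold change 0.56 ± 0.13, edgeR adjusted p = 0.00658).

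The windows of 250 bases before the RefSeq start sites of Fcer2a (build GRCm38.p6, minus strand) are shown because this gene alone among the 8 holds the STAT6 type of motif there. They are chr8:3694175-3694424 for the first start site, chr8:3690862-3691111 for the second and chr8:3690391-3690640 for the third, each written 5′ to 3′ on the gene's strand. Capitals mark a match to TTC and GAA with any 4 bases between them (the STAT6 type), TTC and GAA with any 3 bases between them (the type of other STAT factors), AACAAT or ACAAAG (SOX cores), searched on both strands.
Fcer2a start site 1: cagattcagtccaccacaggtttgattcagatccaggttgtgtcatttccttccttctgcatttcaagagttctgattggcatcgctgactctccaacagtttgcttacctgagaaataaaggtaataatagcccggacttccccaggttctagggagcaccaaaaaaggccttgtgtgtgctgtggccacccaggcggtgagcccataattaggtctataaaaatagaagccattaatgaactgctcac
Fcer2a start site 2: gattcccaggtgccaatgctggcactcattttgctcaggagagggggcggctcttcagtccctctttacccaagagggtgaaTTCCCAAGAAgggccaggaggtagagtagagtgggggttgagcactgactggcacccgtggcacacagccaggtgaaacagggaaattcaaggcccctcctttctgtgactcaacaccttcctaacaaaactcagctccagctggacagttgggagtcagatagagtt
Fcer2a start site 3: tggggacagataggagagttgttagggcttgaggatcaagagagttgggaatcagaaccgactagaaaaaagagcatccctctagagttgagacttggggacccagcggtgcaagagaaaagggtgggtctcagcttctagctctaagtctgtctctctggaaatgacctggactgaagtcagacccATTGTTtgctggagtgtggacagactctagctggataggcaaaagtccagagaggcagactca
The second window holds TTCCCAAGAA, which begins 168 bases before the start site, and the third holds ATTGTT, the reverse complement of AACAAT, which begins 63 bases before its start. The counts are per gene and do not say which start site was used.

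All 8 genes were in the RefSeq promoter table, with 12 start sites between them. A match of the STAT6 type stood before 1 of the 8 genes, beside 6.76% of the 27025 genes in the table. The type of other STAT factors matched before 0 of them (8.13% of genes), AACAAT before 1 (10.9%) and ACAAAG before 1, Il13ra1 (18.6%). Over windows, 5.85% of 32851 held the STAT6 type, 7.02% the type of other STAT factors, 9.42% AACAAT and 16.5% ACAAAG. A match is a description of letters, and a window without one says nothing of the factor. Zbtb32, which fell most, and Gfi1, which rose, are shown beside Fcer2a as windows with no match. They are chr7:30598910-30599159 and chr5:107724344-107724593, both on the minus strand of GRCm38.p6, for the first start site listed for Zbtb32 and the second for Gfi1.
Zbtb32 start site 1: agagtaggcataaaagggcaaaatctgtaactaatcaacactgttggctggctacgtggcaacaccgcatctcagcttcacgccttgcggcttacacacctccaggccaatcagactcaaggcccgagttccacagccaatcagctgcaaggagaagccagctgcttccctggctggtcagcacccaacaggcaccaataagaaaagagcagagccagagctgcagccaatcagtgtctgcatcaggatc
Gfi1 start site 2: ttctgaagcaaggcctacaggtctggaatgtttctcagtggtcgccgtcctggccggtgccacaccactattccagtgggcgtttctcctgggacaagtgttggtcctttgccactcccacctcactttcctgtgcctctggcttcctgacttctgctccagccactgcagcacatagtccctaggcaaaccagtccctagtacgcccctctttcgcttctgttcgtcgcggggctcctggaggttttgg
Neither window overlaps an exon of GENCODE M21. The GC content was 53.6% for Zbtb32 and 57.6% for Gfi1, against 81.6% for Nfil3, the highest of the 12 windows.

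Il4i1 encodes a secreted L-amino acid oxidase that was first found as an IL-4 induced gene of B cells. It was read at 907, 912 and 1218 CPM in pMIR and at 185, 144 and 367 CPM in pMIR-Sox2. The lowest pMIR library was far above the highest pMIR-Sox2 library. The mean fell from 1012 ± 178 to 232 ± 119 CPM (n = 3 each), a log2 fold change of −2.13 ± 0.32 (edgeR adjusted p = 0.000927), or 4.36-fold. In GENCODE M21, 86.3% of its exonic bases lie in exons of other genes, mainly Tbc1d17 on the opposite strand, and it shares exon bases with Nup62 on its own strand. The strand setting of the counting is not given in the sources used here, so reads of these genes may not be told apart. Tbc1d17 was read at 26.4 ± 1.84 CPM in pMIR and 30.2 ± 2.96 CPM in pMIR-Sox2 (log2 fold change 0.19, edgeR adjusted p = 0.205). Nup62, a nuclear pore gene, fell from 293 ± 32.5 to 156 ± 42.4 CPM (log2 fold change −0.91 ± 0.18, edgeR adjusted p = 0.00366).

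Zbtb32, a zinc finger repressor of activated lymphocytes, was counted 187, 198 and 165 times in pMIR and 16, 9 and 27 times in pMIR-Sox2. That was 6.90, 9.44 and 7.92 CPM against 0.735, 0.487 and 1.56 CPM, with no overlap. The log2 fold change was −3.13 ± 0.35 (edgeR adjusted p = 0.000185), or 8.78-fold lower, and only 21 of the genes tested had a lower fold change. The level in pMIR-Sox2 rests on few counts, and pMIR-Sox2 replicate 3 held most of them.

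Nfil3, a basic leucine zipper factor that B cells need for switching to IgE, was read at 280, 369 and 301 CPM in pMIR and at 106, 146 and 146 CPM in pMIR-Sox2. The groups were well apart. The mean fell from 317 ± 46.5 to 133 ± 23.1 CPM (n = 3 each), a log2 fold change of −1.26 ± 0.16 (edgeR adjusted p = 0.000334), or 2.39-fold.

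Gfi1, a zinc finger repressor of lymphocyte and myeloid development, went the other way. It was read at 12.9, 15.8 and 16.9 CPM in pMIR and at 52.8, 64.4 and 53.9 CPM in pMIR-Sox2. The mean rose from 15.2 ± 2.09 to 57.1 ± 6.41 CPM (n = 3 each), a log2 fold change of 1.91 ± 0.14 (edgeR adjusted p = 2.6e-05), or 3.75-fold. A430072P03Rik, which overlaps Gfi1 on the opposite strand over 3.17% of the exonic bases of Gfi1, also rose, from 0.715 ± 0.248 to 3.84 ± 0.364 CPM (edgeR adjusted p = 0.000253).

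**Figure D2:**
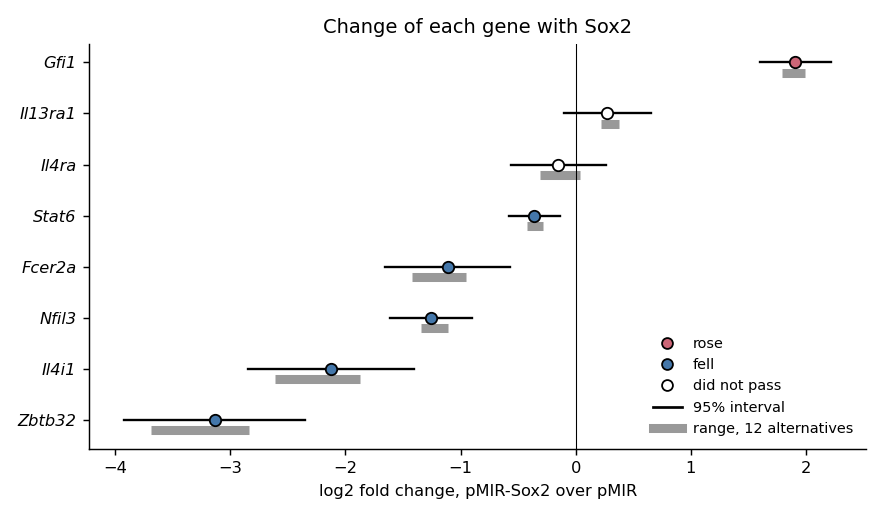
Log2 fold change of pMIR-Sox2 over pMIR for the 8 genes (x axis), with the 95% interval as a black line and the range over the 12 other ways of processing as a grey bar; filled points passed the test. Zbtb32 lies lowest at −3.13 and Gfi1 highest at 1.91, and the intervals of Il4ra and Il13ra1 cross 0.

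Ranked by RPKM, the pMIR cells had Fcer2a at 487 ± 104, Il4i1 at 248 ± 43.6, Il4ra at 200 ± 44.1, Nfil3 at 156 ± 23.0, Stat6 at 44.7 ± 0.507, Gfi1 at 4.78 ± 0.654, Zbtb32 at 3.43 ± 0.542 and Il13ra1 at 1.56 ± 0.187 (SD, n = 3). The libraries of Il4i1 and Il4ra overlapped, and Il4ra was the higher in pMIR replicate 2 alone, so this pair did not differ beyond its spread. The libraries of Il4ra and Nfil3 overlapped too, but Il4ra was above Nfil3 in each pMIR library. In pMIR-Sox2 the order was Fcer2a at 225 ± 76.3, Il4ra at 180 ± 33.9, Nfil3 at 65.4 ± 11.4, Il4i1 at 56.9 ± 29.2, Stat6 at 34.8 ± 2.95, Gfi1 at 17.9 ± 2.01, Il13ra1 at 1.88 ± 0.114 and Zbtb32 at 0.394 ± 0.240. There Fcer2a overlapped Il4ra, and Nfil3 overlapped Il4i1, each pair with an order that differed between libraries. Il4i1 overlapped Stat6 as well, but was above it in each pMIR-Sox2 library. Zbtb32 moved from above Il13ra1 in every pMIR library to below it in every pMIR-Sox2 library. Exon lengths were those of GENCODE M21, another build than that of the counts. For Il4i1, 86.3% of the exonic bases lie in exons of other genes, and the strand setting is not given. Its RPKM and its place in both orders are therefore uncertain.

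The pMIR-Sox2 libraries differed among themselves. Sox2 was read at 989, 786 and 624 CPM in replicates 1 to 3. Against the pMIR mean, replicate 3 had log2 ratios of −0.64 for Fcer2a, −1.46 for Il4i1 and −2.37 for Zbtb32, and replicate 1 had −1.45, −2.45 and −3.46. Replicate 2 had −1.41, −2.82 and −4.05. Replicate 3 thus lay nearest to pMIR for these genes and for Stat6, 4 of the 6 genes that passed, beside 73.8% of the 5551 called genes with a pMIR count. For Nfil3 replicate 2 lay nearest, and for Gfi1 replicate 1. Without pMIR-Sox2 replicate 3 the log2 fold changes were −1.42 for Fcer2a, −2.61 for Il4i1 and −3.69 for Zbtb32. Replicate 2, with less Sox2 than replicate 1, lay further from pMIR for Il4i1 and Zbtb32, but not for Fcer2a. A link of these shifts to the Sox2 level was not tested.

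**Figure D3:**
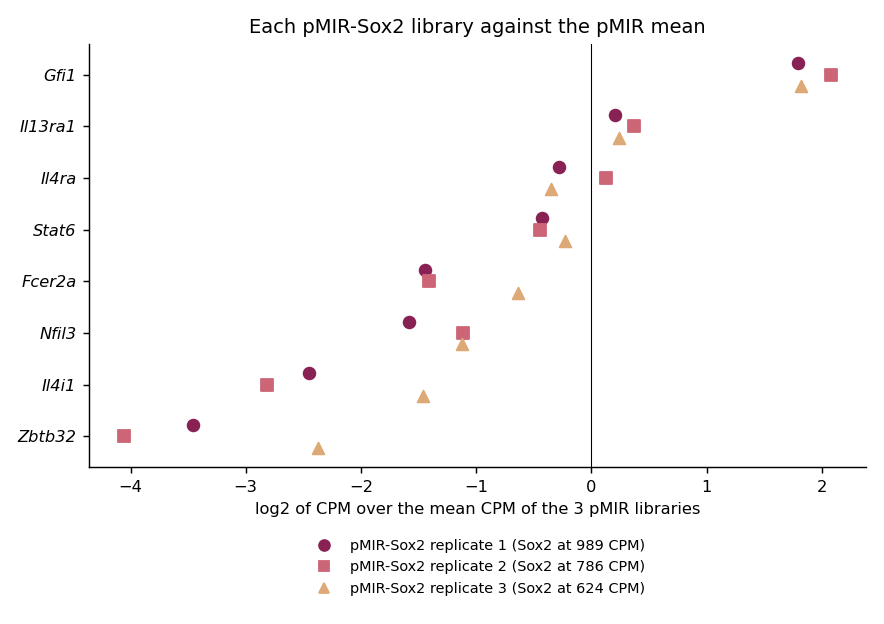
Log2 of the CPM in each pMIR-Sox2 library over the mean CPM of the 3 pMIR libraries (x axis) for the 8 genes, with 1 symbol per library and its Sox2 level in the key. Replicate 3, with Sox2 at 624 CPM, is nearest to 0 for Zbtb32, Il4i1, Fcer2a and Stat6. A link to the Sox2 level was not tested.

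Other genes of IL-4 receptor signalling went both ways. Of 33 listed, 30 were tested, and 7 rose, 9 fell and 14 did not pass, so 53.3% were called beside 43.2% of all genes. The list had a median log2 fold change of −0.02, the same as over all genes tested. This list, too, was chosen with earlier results of these data known. The falls numbered 5 without pMIR replicate 3 or without pMIR-Sox2 replicate 1. Among the Janus kinases, Jak1 was at 342 ± 35.2 and 413 ± 47.6 CPM (log2 fold change 0.27, edgeR adjusted p = 0.108), Jak3, the partner of Il2rg, at 128 ± 14.7 and 135 ± 10.4 CPM (0.07, edgeR adjusted p = 0.621) and Tyk2, a partner of Il13ra1, at 64.6 ± 0.522 and 68.9 ± 5.66 CPM (0.09, edgeR adjusted p = 0.469). With the replicate number as a block, Jak1 passed (log2 fold change 0.27, edgeR adjusted p = 0.0332), and it also passed without pMIR-Sox2 replicate 3 (0.0298). Jak2 rose from 140 ± 10.6 to 288 ± 70.2 CPM (log2 fold change 1.04 ± 0.17, edgeR adjusted p = 0.00142).

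The insulin receptor substrates, which dock on IL4Rα and lead to PI3 kinase, rose. Irs2 went from 8.65 ± 2.63 to 17.9 ± 4.12 CPM (log2 fold change 1.05 ± 0.24, edgeR adjusted p = 0.00701) and Irs1 from 1.49 ± 0.821 to 7.38 ± 2.11 CPM (2.32 ± 0.37, edgeR adjusted p = 0.00120). Of the other adapters, 3 fell, beside 20.0% of all genes called as lower, and Shc1 did not pass (71.1 ± 5.03 and 66.5 ± 4.60 CPM). Grb2 fell from 552 ± 40.1 to 317 ± 35.4 CPM (−0.80), Dok1 from 53.9 ± 1.27 to 32.3 ± 3.86 CPM (−0.74) and Dok2 from 15.4 ± 3.67 to 5.77 ± 0.219 CPM (−1.41). The STAT6 coactivator Ncoa1 rose from 54.9 ± 3.29 to 100.1 ± 12.9 CPM (0.87).

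Of the 5 SOCS family genes in the list, which encode inhibitors of cytokine receptor signalling, 3 fell, 1 rose and 1 did not pass. Over all genes tested, 20.0% were called as lower and 23.2% as higher. Socs3 went from 34.8 ± 1.97 to 17.4 ± 4.07 CPM (log2 fold change −0.9997 ± 0.16, edgeR adjusted p = 0.00121), and Cish from 183 ± 16.2 to 128 ± 22.9 CPM (−0.52 ± 0.14, edgeR adjusted p = 0.0144). Cish missed the threshold when pMIR replicate 3 (edgeR adjusted p = 0.0537) or pMIR-Sox2 replicate 1 (0.0658) was left out. It passed with the replicate block (edgeR adjusted p = 0.000577). Socs1, a brake on the Janus kinases, fell from 37.3 ± 7.17 to 27.0 ± 2.59 CPM (−0.47, edgeR adjusted p = 0.0342) with overlapping libraries, and its edgeR adjusted p was over 0.05 with library totals only (0.0602) and in fits that left out pMIR replicate 2 (0.0820) or 3 (0.133) or pMIR-Sox2 replicate 1 (0.122) or 2 (0.0842). Socs1 passed with the replicate block (edgeR adjusted p = 0.00208). Socs5, another member of the family, rose from 5.09 ± 0.146 to 8.91 ± 1.02 CPM (0.81 ± 0.16, edgeR adjusted p = 0.00376). Socs2 was at 429 ± 51.9 and 418 ± 73.4 CPM with overlapping libraries (−0.04, edgeR adjusted p = 0.856, and 0.041 on the log2 scale with library totals only).

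Of the 4 tyrosine phosphatases in the list, Ptpn1 and Ptpn2 fell and Ptpn6 and Ptpn11 did not pass. The share of all genes called as lower was 20.0%. Ptpn1 went from 189 ± 6.76 to 132 ± 8.35 CPM (log2 fold change −0.52), and Ptpn2 from 74.5 ± 2.02 to 57.0 ± 9.77 CPM (−0.39, edgeR adjusted p = 0.0339). The call of Ptpn2 ended with library totals only (edgeR adjusted p = 0.0630) and in the fits without pMIR replicate 1 (0.0828), 2 (0.0567) or 3 (0.103) or pMIR-Sox2 replicate 1 (0.117) or 2 (0.0953). Ptpn2 passed with the replicate block (edgeR adjusted p = 0.00342). Ptpn6 was at 393 ± 28.1 and 338 ± 41.5 CPM (−0.21, edgeR adjusted p = 0.178) and Ptpn11 at 110.0 ± 5.25 and 98.4 ± 8.70 CPM (−0.16, edgeR adjusted p = 0.230). The lipid phosphatase Inpp5d was at 355 ± 7.18 and 296 ± 25.5 CPM (−0.26, edgeR adjusted p = 0.0650), and it passed with the replicate block (0.0361), in DESeq2 (0.0343) and without pMIR-Sox2 replicate 3 (edgeR adjusted p = 0.0306).

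**Figure D4:**
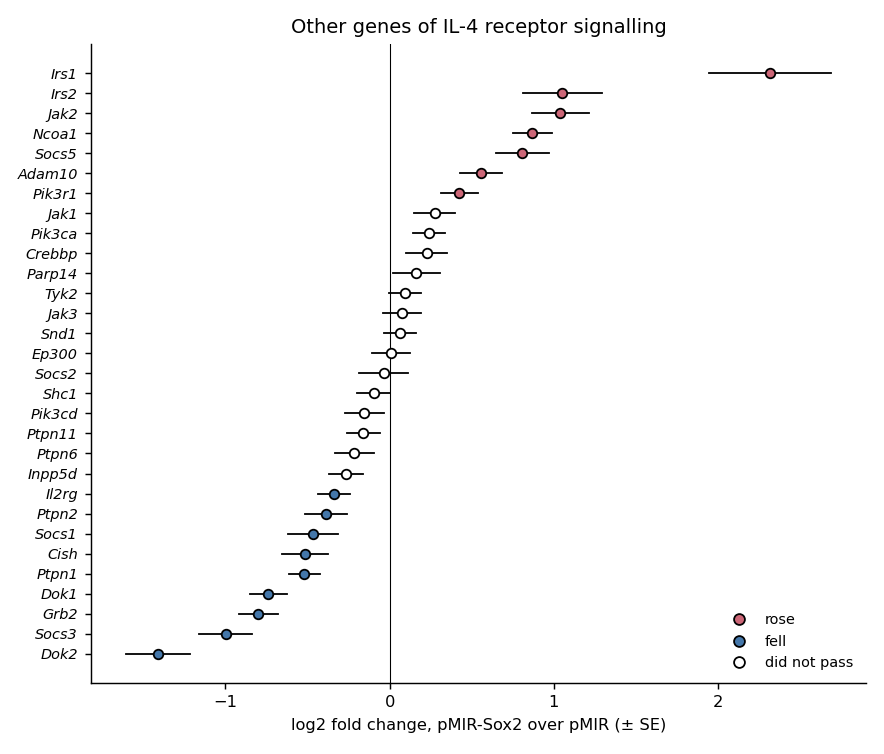
Log2 fold change of pMIR-Sox2 over pMIR with its SE (x axis) for the 30 tested genes of IL-4 receptor signalling outside the 8; red points rose, blue points fell and open points did not pass. The changes run from −1.41 for Dok2 to 2.32 for Irs1, with as many genes on either side of 0.

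Other genes listed for the IL-4 response mostly fell. No culture lacked IL-4 or anti-CD40, so the part of either in these falls was not tested. Of 33 listed, 28 were tested, and 20 fell, 1 rose and 7 did not pass, beside 20.0% of all genes called as lower and 23.2% as higher. The list had a median log2 fold change of −0.996, beside −0.02 over all genes tested. It was chosen with earlier results of these data known, so this count and median are a description and not a test. All 7 genes of MHC class II presentation in the list fell, though H2-DMa (log2 fold change −0.59) did not pass when pMIR replicate 3 was left out (edgeR adjusted p = 0.0629). Ciita, the master regulator of MHC class II, fell from 234 ± 16.9 to 61.2 ± 38.4 CPM (log2 fold change −1.94 ± 0.36, edgeR adjusted p = 0.00282), with a value of −2.56 without pMIR-Sox2 replicate 3 and no call with no filter on low counts (edgeR adjusted p = 0.0613). H2-Ab1 fell from 2242 ± 234 to 980.5 ± 394 CPM (−1.19), Cd74, the invariant chain, from 8964 ± 804 to 4371 ± 1272 CPM (−1.04) and H2-Eb1 from 1698 ± 164 to 1054 ± 292 CPM (−0.69, edgeR adjusted p = 0.0152, but 0.0551 when pMIR replicate 3 was left out and 0.0571 when pMIR-Sox2 replicate 1 was).

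The kinases Pim2 and Pim1, which favour survival, fell from 203 ± 28.8 to 51.2 ± 4.01 CPM (log2 fold change −1.99 ± 0.13, edgeR adjusted p = 1.47e-05) and from 512 ± 49.4 to 251 ± 23.7 CPM. Il1r2, the decoy receptor of IL-1, fell from 32.8 ± 13.8 to 2.23 ± 1.01 CPM (−3.90 ± 0.39, edgeR adjusted p = 0.000123). The transcription factors Batf and Irf4, which act together in activated lymphocytes, fell from 136 ± 13.7 to 63.6 ± 5.802 CPM (−1.09 ± 0.11, edgeR adjusted p = 0.000137) and from 472 ± 166 to 143 ± 17.1 CPM (−1.72 ± 0.23, edgeR adjusted p = 0.000494). Vdr, the vitamin D receptor, fell from 12.3 ± 3.36 to 3.79 ± 0.709 CPM (−1.70) and Cdh17, a cadherin, from 7.06 ± 3.75 to 1.57 ± 0.548 CPM (−2.17). Ccl22, a chemokine, fell from 413 ± 202 to 140 ± 29.98 CPM (−1.56 ± 0.36, edgeR adjusted p = 0.00767), but not past the threshold without pMIR-Sox2 replicate 2 (0.0560) or with no filter (0.111). The transcripts of the classes that IL-4 directs switching to, Ighg1 and Ighe, fell by 2.47 and by 1.76 on the log2 scale, beside falls of 1.26 for Nfil3 and 1.11 for Fcer2a. These counts are per gene and do not measure switching, which was not tested. Xbp1 was at the threshold, with 466 ± 67.1 and 349 ± 59.3 CPM (−0.42, edgeR adjusted p = 0.04997). Its edgeR adjusted p reached 0.157 without pMIR replicate 2 and was 0.00199 with the replicate block.

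The 1 gene of this list that rose was Cd86, a costimulatory ligand, from 26.5 ± 10.8 to 51.7 ± 17.4 CPM (log2 fold change 0.97 ± 0.30, edgeR adjusted p = 0.0293). Its groups overlapped, and the call ended in 4 of the 6 fits that left out 1 library, with edgeR adjusted p of 0.0979 and 0.0956 for pMIR replicates 1 and 3, and 0.0672 and 0.136 for pMIR-Sox2 replicates 1 and 2. It was 0.184 with no filter. With the replicate number as a block, Cd86 passed (log2 fold change 0.98, edgeR adjusted p = 1.49e-05). Bcl6, the germinal centre repressor, was at 39.6 ± 5.98 and 41.9 ± 7.34 CPM (0.08, edgeR adjusted p = 0.709), and Bcl2l1, which encodes BCL-XL, at 122 ± 50.9 and 84.9 ± 13.9 CPM (−0.52, edgeR adjusted p = 0.161, and 0.00663 without pMIR replicate 2). Arg1, Retnla, Mrc1 and Pparg, IL-4 response genes of macrophages, were below the filter, and Mrc1 was highest of them at 0.274 CPM in pMIR and 0.670 CPM in pMIR-Sox2.

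**Figure D5:**
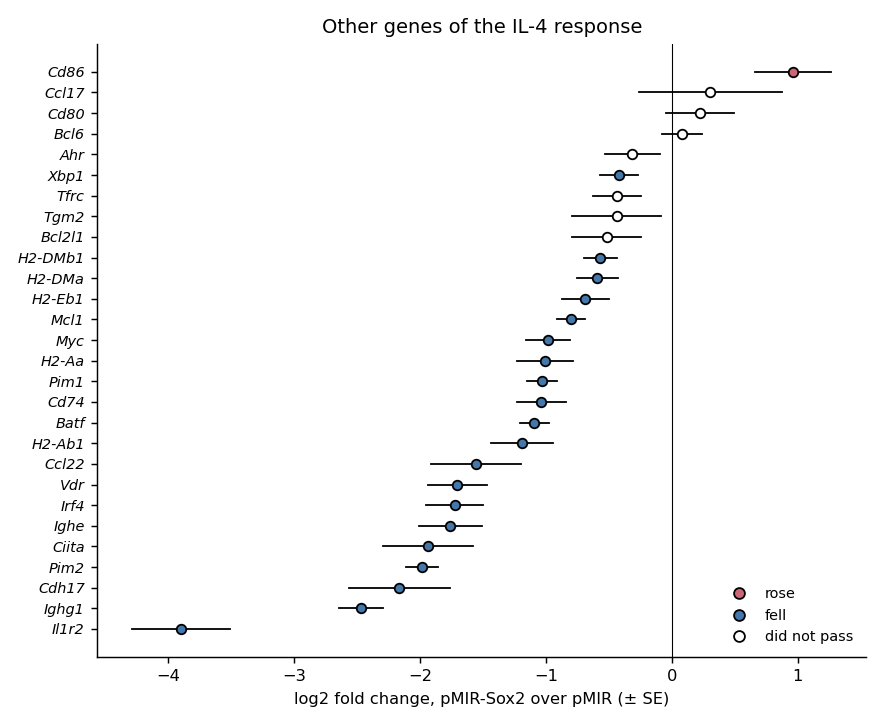
Log2 fold change of pMIR-Sox2 over pMIR with its SE (x axis) for the 28 tested genes of the IL-4 response outside the 8; red points rose, blue points fell and open points did not pass. Most genes lie left of 0, from −3.90 for Il1r2, and Cd86 is the 1 gene that rose.

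The genes with the most similar pattern over the 6 libraries were found by the distance between log2 CPM profiles, each centred on its own mean, among 9504 or 9505 other genes with at least 5 CPM. With libraries of 2 groups, this likeness is set mostly by the difference between groups. Nearest to Il4ra were Susd1 (distance 0.120) and Slc44a2 (0.176), and nearest to Il13ra1 were 1500011B03Rik (0.0813) and Nkap (0.0862). Stat6 was nearest to Plekhj1 (0.0190) and Fam108a (0.0640), and Fcer2a to Amica1 (0.231) and Lss (0.235). Il4i1 was nearest to Ciita (0.375) and Asb2 (0.445), with Ciita also high in pMIR-Sox2 replicate 3 for its group. Zbtb32 was nearest to Cst7 (0.457) and Slc37a2 (0.488), Nfil3 to Cd79b (0.118) and Igkv8-21 (0.182), and Gfi1 to Pgm2l1 (0.260) and Rps6ka5 (0.291).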

How the data were processed

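Total RNA of sorted B cells was sequenced in 3 pMIR and 3 pMIR-Sox2 libraries. The table the authors deposited gives raw counts by Ensembl gene identifier. The submitters' processing notes name the build mm9 and the tools HTSeq 0.6.1p1, SAMtools 0.1.19, Bowtie2 2.2.2, TopHat2 2.0.11 and Trimmomatic 0.32 without saying what each did. The annotation release and the strand setting are not given in the sources used here. Genes took 51.9 to 53.2% of a library's total, and the 5 closing lines that name no gene were left out.

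Genes were filtered with filterByExpr, scaled by TMM and tested with edgeR 4.0.16 in R 4.3.3 (robust quasi-likelihood, Benjamini-Hochberg over 12899 genes, Sox2 left out of counts of calls). SE is the log2 fold change over the square root of F. The test was tried on simulated counts first. Where a symbol had more than 1 row, that with most counts was used. Alternatives were DESeq2 1.42.0, limma 3.58.1 (voom), other scaling, no filter, a replicate block and each library left out. Same-numbered libraries of the groups share a number in the sample descriptions. They deviated together (r of 0.242, 0.359 and 0.189 over genes), so the numbers were taken to pair them. The main fit held no block, so its SE, intervals and p-values leave this pairing out. The replicate block was run as an alternative only.

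Members and lists were chosen with earlier results of these data known. Named were the 8 members, 6 genes of smallest adjusted p per list, 9 genes of receptor, kinase, feedback and isotype set by name, and 2 most similar genes per member. Other list genes, and genes overlapping a member, were named after their values were seen. Exon lengths and overlaps came from GENCODE M21 (GRCm38), and promoters from RefSeq on GRCm38.p6. 1 gene of the marker lists is not reported here and was left out of the summed levels.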

Additional observations from a re-analysis of the deposited data

How the results depend on the processing

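Over 12 alternatives, the 8 genes gave 1 rise and 4 or 5 falls. Zbtb32, Il4i1, Nfil3, Fcer2a and Gfi1 passed in all 12 in the same direction, and Il4ra and Il13ra1 passed in none. Leaving out 1 library gave −0.31 to 0.04 for Il4ra (0.036, the opposite sign, without pMIR replicate 2), −0.43 to −0.32 for Stat6, 5 to 11 falls in the signalling list and 0 to 2 rises in the response list. Bcl6 ran from −0.033 (without pMIR replicate 1) to 0.23, and Socs2 from −0.15 to 0.10, with the opposite sign with library totals only (0.041) and on leaving out replicate 2 of pMIR (0.032) or replicate 3 of pMIR-Sox2 (0.10). The cause was not tested. With the replicate block, 3486 genes rose and 3314 fell, beside 2990 and 2577, and no call of the 8 genes changed (Il4ra −0.15, adjusted p = 0.248). Xbp1 did not pass in 7 of the alternatives. With the block, edgeR adjusted p was 0.00429 for Stat6, 0.00697 for Il2rg and 0.00208 for Socs1. It was 0.000577 for Cish and 0.00199 for Xbp1. Depth was lowest behind Il13ra1 and Zbtb32, with at most 147 and 198 counts in a library.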
